A study of Homo sapiens with 6 samples.

Results

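Cluster 4 of the PC9 cells is a set of 1031 cells that the authors' cell table assigns to cluster 4 at a clustering resolution of 0.2. The cells were taken by that assignment and matched by cell name to the deposited count table. They are 24.5% of the 4208 PC9 cells in the cell table, called the listed cells below, and the count table holds 11258 PC9 cells in all. RNA was read cell by cell as unique molecular identifiers (UMIs), each standing for 1 captured RNA molecule. PC9 is a lung adenocarcinoma epithelial line labelled EGFR-del, for its deletion in the EGFR gene, and its 10 cultures were tagged, pooled and read as 1 library. The cultures were untreated cells, cells adapted by stepwise escalation to 8, 16, 32, 75, 150, 300 or 600 nM or 1.2 µM of osimertinib, and persister cells kept in 1.2 µM for 9 days without escalation. Osimertinib blocks the mutant EGFR kinase on which the growth of this line depends. Each dose is 1 culture, so doses are compared without a test or a p-value. Levels are UMIs per 1000000 UMIs of the group (CPM), differences are log2 ratios of CPM + 1, and the intervals in parentheses are 95% exact binomial intervals that cover counting error only. A gene was measured where the higher group had at least 10 CPM and 20 UMIs, and it was counted as different at 2-fold or more.

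Cells kept under a kinase inhibitor can survive first as slowly dividing persisters and later as adapted lines that grow in the drug. Stress genes, interferon-stimulated genes, epithelial and mesenchymal genes and the genes of the cell division cycle are the programmes usually followed in such cells. NUPR1 encodes a small nuclear protein induced by cell stress, NNMT an enzyme that transfers a methyl group to nicotinamide, and KISS1 the precursor of the kisspeptin peptides, described as a suppressor of metastasis. These 3 genes were given as the markers of cluster 4.

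Cluster 4 held a larger share of the listed cells in each higher dose of the escalation. None of the 169 listed untreated cells was in cluster 4, with an interval for the share of 0 to 2.16%. At 8 nM it held 2 of 329 cells and at 16 nM 7 of 528 cells. The share was 17.2% at 32 nM (71 of 414 cells, 13.6 to 21.1), 32.1% at 75 nM (162 of 505) and 34.7% at 150 nM (114 of 329). It was 46.8% at 300 nM (207 of 442 cells), 54.7% at 600 nM (232 of 424) and 57.2% at 1.2 µM (226 of 395, 52.2 to 62.2). The intervals overlapped between 75 and 150 nM, between 300 and 600 nM (42.1 to 51.6 and 49.8 to 59.5) and between 600 nM and 1.2 µM. Persisters, which met the same 1.2 µM without escalation, had 10 of 673 cells in cluster 4, a share of 1.49% (0.715 to 2.72). The 6 cultures from 32 nM to 1.2 µM gave 1012 of the 1031 cells, and the comparisons by dose below use these 6.

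**Figure D1:**
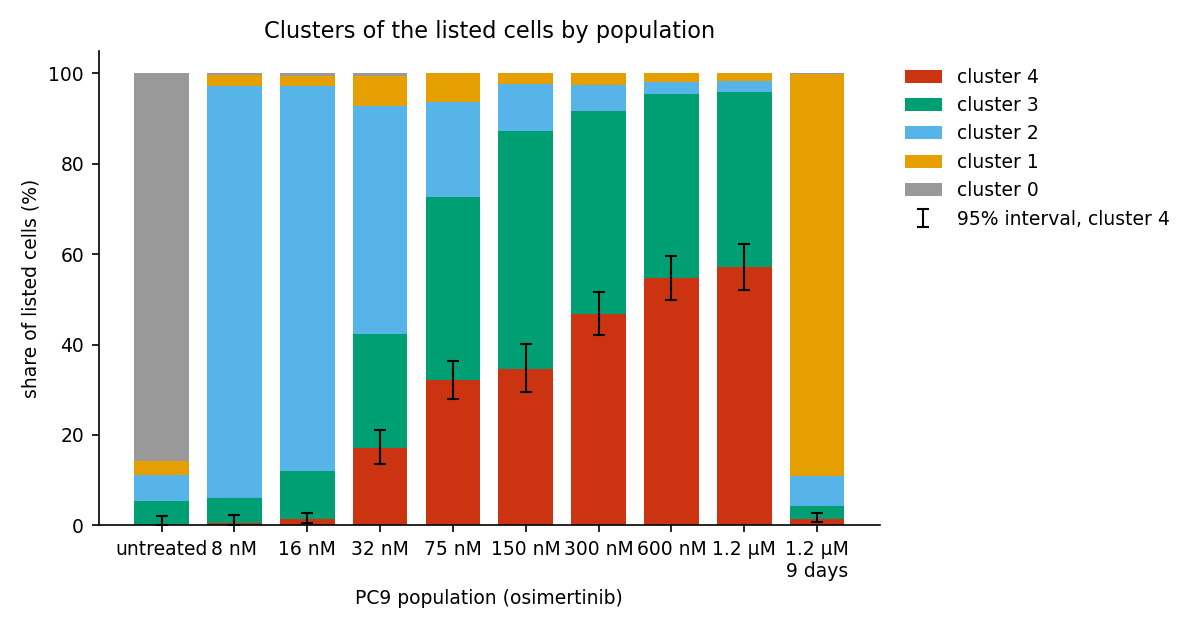
Share of the listed PC9 cells (%) in each cluster by culture, as stacked bars with cluster 4 at the bottom and its 95% exact binomial interval as a black bar. Cluster 4 goes from 0 of 169 untreated cells to 57.2% of the listed cells at 1.2 µM, and is 1.49% of the persisters.

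Cluster 3 was the other cluster of the high doses. It held 104, 205, 173, 198, 173 and 153 listed cells in the 6 cultures, and clusters 3 and 4 together were 96.0% of the listed cells at 1.2 µM. Cluster 4 was 40.6% of this pair at 32 nM and 59.6% at 1.2 µM (54.5 to 64.6). Clusters 3 and 4 of the same culture shared dose, handling and tag, which makes cluster 3 the closest reference by culture. By expression over 9969 genes the nearest cluster was cluster 2, which holds 300 of the 329 listed cells at 8 nM, with a root mean square log2 difference of 0.41. The distance was 0.49 to cluster 1, which holds 599 of the 673 listed persisters, 0.50 to cluster 3, and 0.93 to cluster 0, which holds 145 of the 169 listed untreated cells.

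Cluster 4 and the other 3177 listed cells had like depth. The 1031 cells held 5961968 UMIs, with a median of 5517 UMIs and 2495 genes a cell, against 5546 UMIs and 2514 genes in the other listed cells, and the median share of mitochondrial UMIs was 8.31% in both. The 7050 cells outside the cell table were deeper, with a median of 7527 UMIs. The deposited cell table is named for G1, the phase of the division cycle before S phase. How cells were chosen for it is not given in the sources used here. The listed cells held fewer UMIs of division genes than the others: at 1.2 µM a list of G2 and M phase genes summed to 79.2 UMIs per 10000 in cells outside the table, 29.9 in cluster 3 and 13.9 in cluster 4. The listed share differed too, from 12.9% of the untreated and 31.0% to 39.9% of the adapted cells to 81.8% of the persisters, so a share among listed cells is not a share of the culture. Of all cells of the culture, listed or not, cluster 4 was 6.47, 12.3, 10.7, 18.7, 21.85 and 21.1% from 32 nM to 1.2 µM, an order with 2 steps down. No cell barcode occurred in both lines of the series. The part of this selection in the shares above was not tested.

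The label of cluster 4, a high-dose adapted state, was met by its cultures, but its 3 given markers did not set it apart alike. NUPR1 (chromosome 16, 28532708 to 28539174, minus strand, in the GENCODE v29 annotation of GRCh38) had 1.92 CPM in cluster 0, 80.6 in cluster 1, 47.6 in cluster 2, 62.3 in cluster 3 and 211 in cluster 4. It was highest in cluster 4, at 3.67 times the 57.5 CPM of all other listed cells (3.38 to 3.99). NNMT (chromosome 11, 114257787 to 114313285, plus strand) had 0.96, 3.50, 6.54 and 27.9 CPM in clusters 0 to 3 and 37.6 CPM in cluster 4. NNMT separated both high-dose clusters from the rest more than cluster 4 from cluster 3. KISS1 (chromosome 1, 204190341 to 204196486, minus strand) had 27.8, 24.3, 46.2 and 273 CPM in clusters 0 to 3 and 153.5 CPM in cluster 4. Cluster 3, not cluster 4, was therefore the cluster highest in KISS1, and its log2 difference between cluster 4 and all other listed cells was 0.33. That difference of KISS1 was 0.00 with the cultures weighted equally and -0.24 with the cells outside the table added to the reference. The label stands here as the name of a cluster and not as a cell type read from KISS1.

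Within cluster 4 the NUPR1 level was higher at the higher doses. It was 78.3, 162, 161, 233, 260.5 and 251 CPM from 32 nM to 1.2 µM. Cluster 3 had 38.2, 57.8, 62.8, 76.6, 73.1 and 67.4 CPM in the same cultures. The highest value of cluster 3 lay below the lowest of cluster 4. Cluster 2 had 46.7 CPM at 32 nM and 132.6 CPM at 75 nM, the latter between cluster 3 (57.8 CPM) and cluster 4 (162 CPM) of the same culture and above cluster 4 at 32 nM. Over the 6 cultures cluster 4 had 3.28 times the NUPR1 level of cluster 3 (2.93 to 3.69), and within cluster 4 the 1.2 µM cells had 3.21 times the level of the 32 nM cells (2.23 to 4.77). After thinning each cell to 3410 UMIs, leaving out shallower cells, 48.2% of 965 cluster 4 cells held a NUPR1 UMI (44.99 to 51.4). The thinned share was 18.3% in cluster 3, 11.6% in cluster 2, 22.4% in cluster 1 and 1.92% in 156 untreated listed cells. Without thinning 64.1% of cluster 4 cells and 1.78% of untreated listed cells held a NUPR1 UMI.

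KISS1 in cluster 4 was 100, 132, 203, 155, 141 and 176.5 CPM from 32 nM to 1.2 µM. Cluster 3 had 256, 269, 282, 275, 302 and 325 CPM, higher in 6 of 6 cultures, with a log2 difference of -0.87 for cluster 4 over the 6. NNMT in cluster 4 was 22.0, 26.0, 34.7, 38.0, 40.2 and 52.7 CPM, against 16.6, 26.5, 19.7, 40.7, 21.8 and 50.2 CPM in cluster 3. NNMT was higher in cluster 4 in 4 of the 6 cultures, so the clusters overlapped.

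The cells outside the cell table have no cluster number there, and whether the authors clustered them is not given in the sources used here. The 3 markers were also read in these cells. There NUPR1 went from 2.97 CPM untreated to 104 CPM at 1.2 µM, a ratio of 35.1 (24.0 to 53.3), and was 37.85 CPM in persisters. KISS1 went from 22.3 to 394.5 CPM and was 31.7 CPM in persisters, and NNMT went from 1.17 to 50.1 CPM and was 2.64 CPM in persisters. For these 3 markers the 1.2 µM culture was high and the persisters were below it, while NUPR1 at 8, 16 and 32 nM (6.44, 11.9 and 36.05 CPM) was below its level in persisters and NNMT at 8 nM (0.644 CPM) was below its untreated level. Of 9454 genes measured in this contrast of unlisted cells, 540 (5.71%) were 2-fold higher at 1.2 µM and 352 (3.72%) lower.

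**Figure D2:**
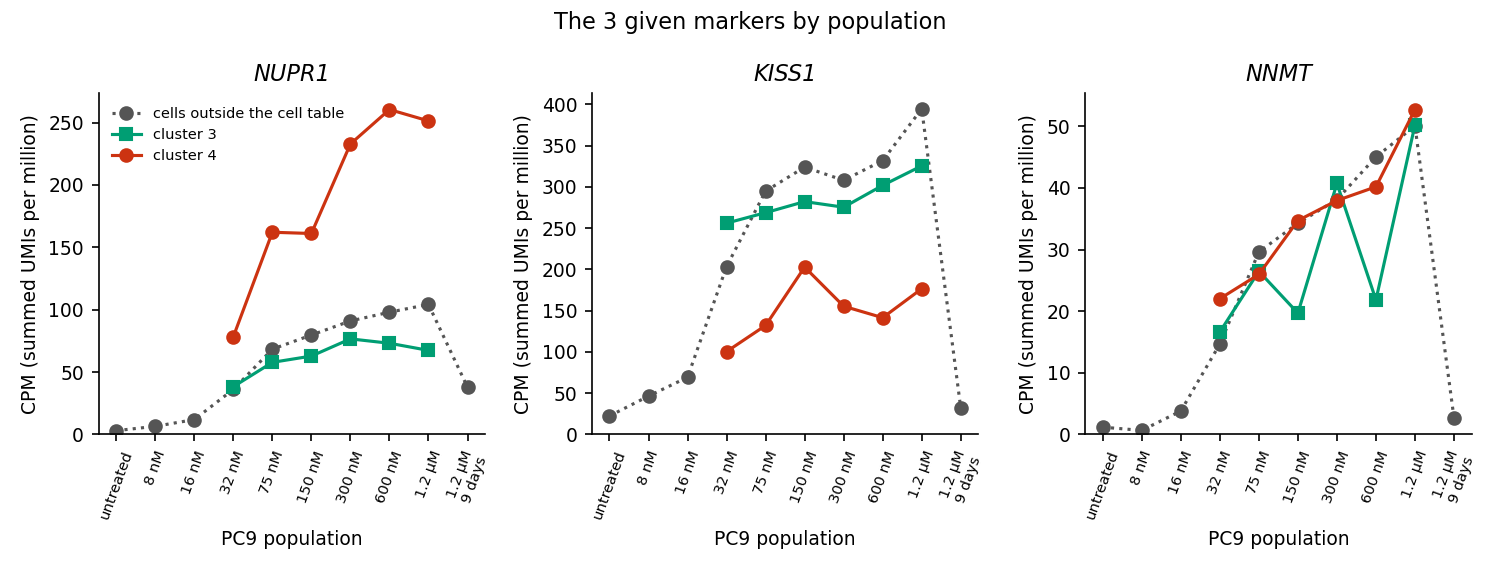
CPM of NUPR1, KISS1 and NNMT by culture in cluster 4 (red), cluster 3 (green) and cells outside the cell table (grey, dotted), 1 value for each group. NUPR1 of cluster 4 lies above cluster 3 at each of the 6 doses, KISS1 of cluster 4 lies below it, and the NNMT lines cross.

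Against all other listed cells, 55 of 9269 measured genes were 2-fold higher in cluster 4 (0.593%) and 150 were 2-fold lower (1.62%). With the cells outside the cell table added to the reference, 192 were higher and 580 lower, and 154 of the 205 genes were among them. The cells were clustered on these genes, so these counts and the values of this paragraph and the next describe the cluster and are no test of it. BMP6, a secreted ligand of the TGF-beta family, had the largest ratio among genes of at least 25 CPM, with 51.3 CPM against 10.9 CPM (log2 difference 2.14). TNNT2, the cardiac form of troponin T, had 67.3 CPM against 19.1 CPM (log2 difference 1.76). LBH, a transcription cofactor, had 222 CPM against 77.0 CPM (log2 difference 1.52). These 3 genes were also higher than in cluster 3 in 6 of 6 cultures. TM7SF2, a reductase of cholesterol synthesis, had 70.45 CPM against 25.5 CPM. GPNMB, a glycoprotein of lysosomes and melanosomes, had 86.7 CPM against 37.5 CPM, and MFAP5, a microfibril glycoprotein of the extracellular matrix, had 430 CPM against 187 CPM. The antiviral GTPase MX1, the citrullinating enzyme PADI2, the cancer and testis antigen XAGE2 and the RING finger gene RNF150 completed the 12 highest with NUPR1 and NNMT.

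The 12 lowest genes held a group of the division cycle and a group of other genes. PTTG1, which encodes securin, the guard of sister chromatid separation, had 44.3 CPM in cluster 4 against 308 CPM in the other listed cells (log2 difference -2.77). BIRC5, which encodes survivin, had 7.88 CPM against 53.05 CPM, and DLGAP5, CDKN3, MKI67 and CCNB2 of mitosis were also among the 12. C3, the central complement component, had 4.03 CPM against 35.4 CPM (log2 difference -2.86), but cluster 3 had 1.53 CPM and cluster 1 had 120 CPM. PDZK1IP1, a small membrane protein, was likewise set by cluster 1, with 579 CPM there, 14.5 in cluster 3 and 25.3 in cluster 4. GDA, the guanine deaminase, had 13.6 CPM in cluster 4 and 19.3 in cluster 3 against 203 in cluster 1. HMGA2, a chromatin protein of fetal tissues, had 288 CPM in cluster 0 and 6.21 CPM in cluster 4. Without the untreated culture the log2 difference of HMGA2 was -0.86 in place of -2.03, and without the persisters that of PDZK1IP1 was -0.70 in place of -2.56, so neither was then 2-fold. Without the persisters the log2 difference was -1.55 for C3 and -2.02 for GDA. The low values of C3, PDZK1IP1 and GDA were thus shared with cluster 3, and those of the mitosis genes were not. The 12 included PCSK5 and KCNQ5 as well.

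EGFR, which encodes the target of the drug (chromosome 7, 55019021 to 55211628, plus strand), had the lowest level of all clusters in cluster 4. It was 1136 CPM in cluster 0, 734 in cluster 1, 698 in cluster 2, 760 in cluster 3 and 494.5 in cluster 4. Within cluster 4 it was 692.5 CPM at 32 nM and 462 CPM at 1.2 µM, and cluster 3 was higher in 6 of 6 cultures, at 936 to 676 CPM. The difference from all other listed cells was a log2 value of -0.61, which is short of 2-fold. Outside the cell table EGFR was 964 CPM untreated, 532 CPM at 1.2 µM and 856.5 CPM in persisters. Of 9 measured ERBB receptors and ligands none was 2-fold apart from cluster 3.

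**Figure D3:**
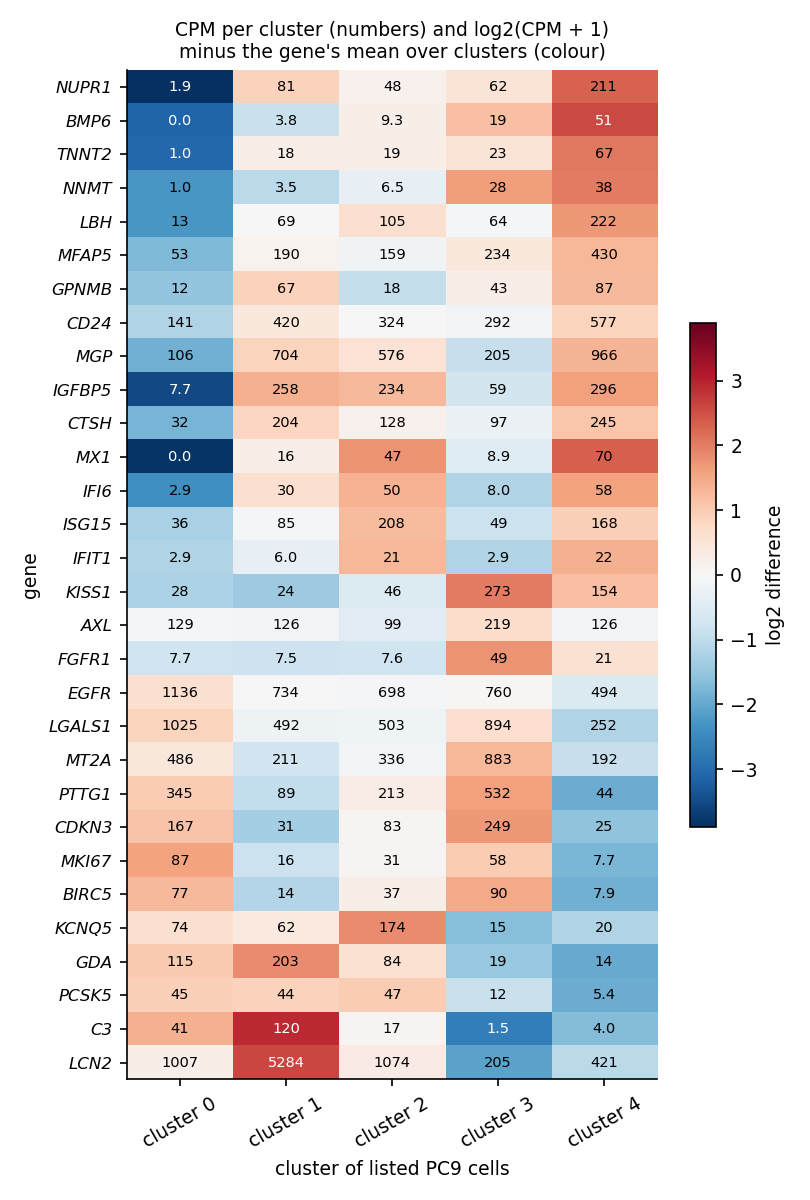
CPM (numbers) of 30 genes in the 5 clusters of listed PC9 cells, with the colour giving log2(CPM + 1) minus the mean of the gene over the clusters. NUPR1, BMP6, TNNT2 and LBH have their highest value in cluster 4, interferon-stimulated genes are high in clusters 2 and 4, KISS1 is highest in cluster 3, and PTTG1, CDKN3, MKI67 and BIRC5 are lowest in cluster 4.

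Clusters 3 and 4 were then compared within the 6 cultures, with 1012 cells of cluster 4 and 1006 of cluster 3. Of 9355 measured genes, 230 were 2-fold higher in cluster 4 (2.46%) and 235 were 2-fold lower (2.51%), with a median log2 difference of -0.05. Cluster 4 was higher in all 6 cultures for 1283 genes (13.7%) and lower in all 6 for 1774 genes (19%). The lists below were chosen with earlier results of these data known, and each list is given by its counts beside these shares.

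Interferon-stimulated genes, which cells switch on after sensing interferon or foreign nucleic acid, made up the list with the most higher members. Of 36 measured genes of the list, 29 were 2-fold higher in cluster 4 than in cluster 3 and 0 lower, with a median log2 difference of 1.63. All 6 cultures had cluster 4 higher for 30 genes. The summed level of the list was 2219, 1415, 1566, 1476, 1860 and 2306 CPM in cluster 4 from 32 nM to 1.2 µM, and 623 to 780 CPM in cluster 3. The summed levels did not overlap, and cluster 4 was highest at the lowest and the highest of the 6 doses.

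Single members differed in the same direction from cluster 3. MX1 had 70.45 CPM in cluster 4 and 8.88 CPM in cluster 3, a ratio of 7.67 within the 6 cultures (5.79 to 10.3). Its cluster 4 values were 88.1, 43.6, 44.4, 53.5, 63.4 and 122 CPM from 32 nM to 1.2 µM, all above the highest value of cluster 3, 13.7 CPM. IFI6, a mitochondrial antiapoptotic protein, had 58.4 against 7.96 CPM, and ISG15, a ubiquitin-like modifier, had 168 against 49.3 CPM. The RNA sensor IFIT1 had 22.1 against 2.91 CPM. The nucleic acid sensors OAS2 and DDX58 had 14.9 and 38.2 CPM against 1.38 and 9.34 CPM. Each of these genes was higher in cluster 4 in 6 of 6 cultures. IRF1, which interferon gamma induces, had 23.8 against 17.0 CPM and was higher in 4 of 6 cultures. IFI6, ISG15, IFIT1, IRF1, OAS2 and DDX58 were chosen after their values were seen.

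The interferon list did not set cluster 4 apart from its nearest cluster. Against cluster 2, 0 of 38 measured genes were 2-fold higher and 3 were lower, with a median log2 difference of 0.00, while over all 9276 genes 98 were higher (1.06%) and 140 lower (1.51%). ISG15 had 208 CPM in cluster 2, and OASL, an antiviral protein of the OAS family, had 45.7 CPM there against 13.25 CPM in cluster 4. Per cell the list made up a mean of 18.6 UMIs per 10000 in cluster 4, 19.6 in cluster 2 and 13.56 in cluster 1. The mean was 7.20 in cluster 3 and 6.08 in cluster 0. The medians of clusters 4, 2 and 1 lay closer together, at 13.3, 11.96 and 12.69 UMIs per 10000. Against cluster 1, 10 of 36 measured genes were 2-fold higher in cluster 4 and 1 was lower, with a median log2 difference of 0.66. Cells of cluster 4 differed among themselves: at 1.2 µM the middle 50% of cells ran from 11.3 to 31.3 UMIs per 10000. The genes of antigen presentation on MHC class I were less apart from cluster 3, with 0 of 10 measured genes 2-fold higher, 4 higher in all 6 cultures and a median log2 difference of 0.25. HLA-B had 113 CPM in cluster 4, 85.6 in cluster 3 and 311 in cluster 1. OASL and HLA-B were chosen after their values were seen.

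Promoter sequences are shown for 3 interferon-stimulated genes and, for contrast, for 3 division genes that were lower in cluster 4. The windows hold the 170 bases before the annotated start of each gene, 5′ to 3′ on the strand of the gene, from RefSeq on GRCh38.p14. Capitals mark the interferon-stimulated response element, searched on both strands as GAAA, any 2 bases and GAAA, in the first 3 sequences, and the cell cycle gene homology region, searched as TTTGAA on both strands, in the other 3. Copies that overlap are written as 1 run of capitals. The genes were chosen after their values and sequences were seen, and a match is a description of letters and not a site shown to be bound. They lie at chr1:27672193-27672362 (IFI6, minus strand), chr13:42992242-42992411 (EPSTI1, minus strand), chr4:88456949-88457118 (HERC5, plus strand), chr10:128126424-128126593 (MKI67, minus strand), chr1:43358811-43358980 (CDC20, plus strand) and chr1:154974511-154974680 (CKS1B, plus strand).
IFI6: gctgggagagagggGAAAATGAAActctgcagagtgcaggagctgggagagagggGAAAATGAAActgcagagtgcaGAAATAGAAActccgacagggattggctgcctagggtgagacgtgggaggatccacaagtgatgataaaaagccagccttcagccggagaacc
EPSTI1: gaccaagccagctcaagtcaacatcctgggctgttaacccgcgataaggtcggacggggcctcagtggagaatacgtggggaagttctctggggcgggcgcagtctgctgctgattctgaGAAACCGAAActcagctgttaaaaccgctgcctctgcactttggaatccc
HERC5: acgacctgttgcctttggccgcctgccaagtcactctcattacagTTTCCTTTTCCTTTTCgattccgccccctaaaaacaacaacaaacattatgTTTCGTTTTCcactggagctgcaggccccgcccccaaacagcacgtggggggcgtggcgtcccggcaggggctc
MKI67: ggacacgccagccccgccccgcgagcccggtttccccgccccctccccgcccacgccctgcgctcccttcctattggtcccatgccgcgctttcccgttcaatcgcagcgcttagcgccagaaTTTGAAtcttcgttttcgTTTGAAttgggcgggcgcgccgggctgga
CDC20: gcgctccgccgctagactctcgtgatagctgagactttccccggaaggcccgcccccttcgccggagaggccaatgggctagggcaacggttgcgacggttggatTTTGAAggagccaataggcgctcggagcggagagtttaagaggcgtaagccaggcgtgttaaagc
CKS1B: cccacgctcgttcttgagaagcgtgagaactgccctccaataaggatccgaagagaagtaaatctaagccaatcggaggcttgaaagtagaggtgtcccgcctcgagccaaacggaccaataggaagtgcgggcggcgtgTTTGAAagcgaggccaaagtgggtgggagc

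IFI6 held 3 copies of the response element, which begin 156, 115 and 93 bases before the start, and EPSTI1 held 1 copy at 50 bases. HERC5, a ligase of ISG15, held 3 copies on the opposite strand, of which 2 overlap. In the 300 bases from 250 before to 50 after the start, the element occurred in 23 of the 35 interferon list genes found in the RefSeq table (65.7%). It occurred in 2 of 45 G2 and M phase genes (4.44%), 0 of 32 S phase genes and 996 of all 27305 genes of the table (3.65%). EPSTI1 had 48.8 CPM in cluster 4 and 16.1 CPM in cluster 3, and HERC5 had 12.75 and 5.97 CPM. MKI67, the proliferation antigen, held 2 copies of the homology region, and CDC20, an activator of the anaphase-promoting complex, and CKS1B, a subunit of cyclin-dependent kinases, held 1 each. The homology region occurred in 31 of 45 G2 and M phase genes (68.9%), 2 of 32 S phase genes (6.25%), 3 of 35 interferon list genes (8.57%) and 4212 of all genes (15.4%). Within these windows the response element was common in the interferon list and the homology region in the G2 and M list. The S phase list, also lower than in cluster 3, held the homology region less often than all genes did. The lists group genes by function, so these shares describe the lists and are no result about cluster 4.

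Division genes were lower in cluster 4 than in cluster 3 in each culture. Among genes of the G2 and M phases 21 of 43 measured were 2-fold lower and 0 higher, with 33 lower in all 6 cultures and a median log2 difference of -0.99. Of 33 measured S phase genes 10 were 2-fold lower and 0 higher, with 25 lower in all 6 cultures and a median of -0.86. The S phase count was 6 with a pseudocount of 5 CPM, 3 at a 3-fold threshold and 0 of 6 measured at a minimum of 50 CPM. The summed G2 and M list was 1405 CPM in cluster 4 and 3061 CPM in cluster 3, and the summed S list was 714 and 1257 CPM. PTTG1 was 24.5, 32.2, 88.9, 49.2, 30.1 and 42.8 CPM in cluster 4 from 32 nM to 1.2 µM and 516 to 571 CPM in cluster 3, so the groups lay far apart. MKI67 had 7.72 against 58.5 CPM, CDC20 had 8.39 against 55.1 CPM and CKS1B had 58.2 against 181 CPM, each lower in 6 of 6 cultures. RRM2, a subunit of ribonucleotide reductase, had 2.85 against 14.4 CPM, and the cyclin CCNB1 had 23.0 against 121 CPM. Topoisomerase TOP2A was less apart, with 12.1 against 25.9 CPM.

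The summed G2 and M level per cell was also low in cluster 1, at 12.8 UMIs per 10000 against 13.6 in cluster 4, so cluster 4 was not the only low cluster. In the cells outside the cell table, division genes did not differ by 2-fold between the 1.2 µM and the untreated culture in most cases: 1 of 53 measured G2 and M genes and 0 of 42 S genes were lower, and 0 were higher. In both cultures the cells outside the table held more division UMIs than the listed cells. The selection into the table is thus part of this contrast, which cannot show how the whole cultures differ. In a list of cyclins and their inhibitors 1 of 12 measured genes was 2-fold higher than in cluster 3 and 0 lower. That gene was CDKN2B, an inhibitor of cyclin D kinases, with 66.9 against 30 CPM, and the inhibitor CDKN1B had 38.75 against 26.8 CPM, in 6 of 6 cultures each. Cyclin D1, CCND1, was higher too, with 647 against 526 CPM in 6 of 6 cultures, while CDKN1A had 17.1 against 19.3 CPM. CCNB1, CDKN2B, CDKN1B, CCND1, CDKN1A, CDC20, CKS1B, TOP2A, EPSTI1 and HERC5 were chosen after their values were seen.

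**Figure D4:**
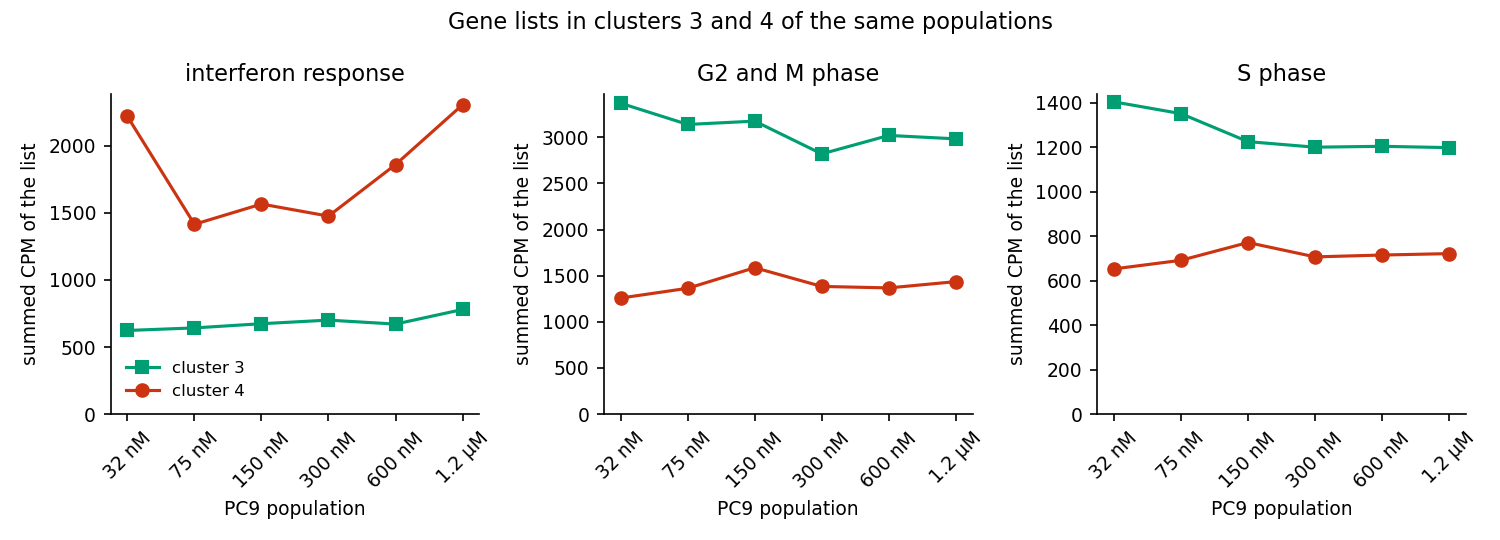
Summed CPM of the interferon, G2 and M phase and S phase lists in clusters 3 (green) and 4 (red) of the same 6 cultures, 1 value for each group. The interferon sum of cluster 4 lies above cluster 3 at each dose, at 1415 to 2306 against 623 to 780 CPM, and both division sums lie below it.

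NUPR1 was compared with the integrated stress response list, genes that the transcription factor ATF4 switches on when amino acids run short or proteins misfold. Against cluster 3, NUPR1 was the 1 gene of 23 measured that was 2-fold higher, 0 were lower, and the median log2 difference was -0.19. ATF4 had 131 CPM in cluster 4 and 116.5 CPM in cluster 3. PSAT1 and PHGDH of serine synthesis had 22.6 and 29.02 CPM in cluster 4 against 40.6 and 47.3 CPM, and the pseudokinase gene TRIB3 had 7.38 against 15.2 CPM, each lower in 6 of 6 cultures. ASNS, the asparagine synthetase, had 10.9 against 16.1 CPM. Of 20 measured chaperones of the endoplasmic reticulum 0 differed by 2-fold. The other measured genes of the stress list thus did not share the 2-fold difference of NUPR1 from cluster 3. In all 6 cultures 2 genes of the list were higher and 8 lower. Within cluster 4 the summed list, NUPR1 included, was 1564 CPM at 32 nM and 2200 CPM at 1.2 µM. Between these doses 4 of 17 measured genes were 2-fold higher at 1.2 µM and 0 lower, against 4.75% of all genes higher. This contrast leans on depth. PSAT1, PHGDH, TRIB3, ASNS and ATF4 were chosen after their values were seen.

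Over the 19 groups of cluster and culture with at least 50 cells, the genes whose log2(CPM + 1) followed NUPR1 most closely were RHOBTB3, HEG1, ABLIM1, TNNT2 and MGST3. Their Pearson correlations with NUPR1 were 0.948, 0.948, 0.947, 0.942 and 0.925. These are descriptions, since the groups share 1 library and the doses of the escalation.

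NNMT was the 1 gene of its list that reached 2-fold against all other listed cells. Its list holds 19 measured genes of nicotinamide and methyl group metabolism, with a median log2 difference of -0.11. NAMPT, the salvage enzyme that reuses nicotinamide, had 321.5 CPM in cluster 4 and 203 CPM in cluster 3, but 623 CPM in cluster 1. PARP1, which consumes NAD, had 140 against 221 CPM in cluster 3. In the list of metastasis suppressors that holds KISS1, 2 of 13 measured genes were 2-fold higher than in cluster 3 and 0 lower, namely GSN, the actin-severing protein gelsolin, and TXNIP, an inhibitor of thioredoxin. GSN had 151 against 59.1 CPM and TXNIP 194 against 78.4 CPM. NME1, a nucleoside diphosphate kinase, had 152 against 235 CPM, and like KISS1 it was lower in 6 of 6 cultures. These 5 genes, NAMPT, PARP1, GSN, TXNIP and NME1, were chosen after their values were seen.

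BMP6 differed from most of its pathway. It was 4.89, 18.7, 30.55, 67.3, 71.1 and 71.1 CPM in cluster 4 from 32 nM to 1.2 µM and 3.325, 18.45, 13.1, 25.25, 32.3 and 20.55 CPM in cluster 3. The clusters were close at 32 and 75 nM and lay apart from 150 nM on. Outside the cell table BMP6 was 1.59 CPM untreated and 33.4 CPM at 1.2 µM. In a list of 28 TGF-beta and BMP genes, which does not hold BMP6, 0 of 22 measured genes differed from cluster 3 by 2-fold, while 8 were higher and 5 lower in all 6 cultures. ID1 and ID3, direct targets of BMP receptors, had 228 and 323 CPM in cluster 4 against 134 and 233.5 CPM in cluster 3. BAMBI, a decoy receptor, had 34.2 against 17.3 CPM. ID1, ID3 and BAMBI were higher in 6 of 6 cultures, and ID1 and ID3 were chosen after their values were seen.

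Keratins of the epithelial list were higher in cluster 4 than in cluster 3. Of 27 measured genes of the list 3 were 2-fold higher, 0 lower, 13 were higher in all 6 cultures and 5 lower in all 6, with a median log2 difference of 0.22. Against cluster 2, 0 of 28 measured genes were 2-fold higher and 1 lower, with a median of -0.08. The summed list was 12588, 15837, 16270 and 11782 CPM in clusters 0 to 3 and 17109 CPM in cluster 4. KRT8, KRT18, KRT19 and KRT7, keratins of simple epithelium, had 2185, 3751, 2812 and 3963 CPM in cluster 4 and 1281, 2533, 1741 and 2454 CPM in cluster 3. CD24, a surface sialoprotein, had 577 against 292 CPM, and the mucin MUC1 had 32.0 against 11.5 CPM. The adhesion molecule EPCAM had 265.5 against 315 CPM, lower in 6 of 6 cultures, and CDH1, which encodes E-cadherin, had 111.5 against 108.5 CPM. The line's epithelial markers were therefore present in cluster 4. Of 8 listed squamous markers 6 were in the count table, of which 3 were measured. KRT6A was 2-fold lower in cluster 4, with a log2 difference of -1.59, and KRT17 was 2-fold higher, with 720 CPM against 355 CPM in the other listed cells.

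Genes often followed as mesenchymal or as bypass receptors lay on both sides of cluster 3. Of 16 measured mesenchymal and matrix genes 1 was 2-fold higher and 2 lower, and of 14 measured bypass receptors and ligands 0 were higher and 1 lower. LOX, a collagen cross-linking enzyme, had 3.86 CPM in cluster 4 and 24.2 CPM in cluster 3. VIM, which encodes vimentin, had 1.68 and 4.90 CPM, below the minimum of 10 CPM, and is not among the 16. FN1, the matrix protein fibronectin, had 77.2 CPM in cluster 4, 45.9 in cluster 3 and 329 in cluster 1. The receptor AXL had 126 against 219 CPM in cluster 3 and FGFR1 had 21.5 against 48.5 CPM, both lower in 6 of 6 cultures. MET had 556 against 446 CPM and GAS6, a ligand of AXL, had 114 against 63.2 CPM, both higher in 6 of 6 cultures. The receptor and its ligand thus lay on opposite sides of cluster 3. LGALS1, a galectin, and MT2A, a metallothionein, were 2 abundant genes with lower levels: LGALS1 had 252 CPM against 894 in cluster 3, and MT2A had 192 CPM against 883. MET, GAS6, KRT7, CD24, MUC1, AXL, FGFR1, LGALS1 and MT2A were chosen after their values were seen.

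Single genes of other lists or of none were also 2-fold higher in cluster 4 than in cluster 3. MGP, the matrix Gla protein, had 966 CPM against 205 CPM, and within cluster 4 it was 1524 CPM at 32 nM and 775 CPM at 1.2 µM. IGFBP5, an insulin-like growth factor binding protein, had 296 against 59.2 CPM, as the 1 gene of 6 measured in its list that was 2-fold higher. ALDH1A2, an enzyme of retinoic acid synthesis, had 124 against 37.8 CPM. In its list of aldehyde dehydrogenases 2 of 11 measured genes were 2-fold higher than in cluster 3. The lysosomal protease CTSH had 245 against 96.9 CPM, and PSAP, the precursor of the saposins, had 421.5 against 203 CPM. Of 29 measured lysosome and autophagy genes 3 were 2-fold higher, 0 lower, and 16 were higher in all 6 cultures. These lists did not set cluster 4 apart from its nearest cluster. Against cluster 2, 0 of 6 measured IGF binding, 0 of 11 aldehyde dehydrogenase and 0 of 29 lysosome and autophagy genes were 2-fold higher. LCN2, the iron carrier lipocalin, had 421 against 205 CPM, far below the 5284 CPM of cluster 1. Of 23 measured genes of glycolysis and the hypoxia response 0 were 2-fold apart, 2 were higher in all 6 cultures and 10 lower in all 6, such as ENO1 at 417 against 792.5 CPM and LDHA at 498 against 859 CPM. MGP, ALDH1A2, CTSH, PSAP, ENO1 and LDHA were chosen after their values were seen.

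A segment of chromosome 14 around HSP90AA1 was low in both high-dose clusters. HSP90AA1, a heat shock chaperone, had 8188 CPM in cluster 0, 3782 in cluster 1, 4203 in cluster 2, 1547 in cluster 3 and 1003 in cluster 4. Against all other listed cells 12 of 19 measured genes of the segment list were 2-fold lower in cluster 4, and against cluster 3 none was. The list was drawn up with earlier results of these cells known. Within cluster 4 HSP90AA1 was 2085, 1087, 933, 748, 825 and 841 CPM from the lowest to the highest of the 6 doses. The 32 nM cells stood above the other 5 cultures.

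Cluster 4 cells of 1.2 µM and of 32 nM were compared with each other, 226 and 71 cells. Of 6153 measured genes, 292 were 2-fold higher at 1.2 µM (4.75%) and 42 lower (0.683%). This split leans on depth: the minimum of 20 UMIs admitted genes from 15.3 CPM at 1.2 µM but only from 48.9 CPM at 32 nM, and with a minimum of 50 CPM 31 genes were higher and 39 lower. The 6 lowest genes rested on 27 to 198 UMIs in the 32 nM cells. KCNQ5, a potassium channel gene, went from 100 CPM at 32 nM to 17.6 CPM at 1.2 µM, ADIRF from 259 to 64.2 CPM, and the keratin KRT13 from 308 to 102 CPM. ALCAM, an adhesion molecule, went from 416 to 146 CPM and DYNC1H1, the dynein heavy chain in the chromosome 14 segment, from 484.5 to 152 CPM. The highest genes rested on few UMIs at 32 nM: BMP6 had 2 UMIs there and 93 at 1.2 µM, a ratio of 14.5 (3.91 to 122), and RNF150 had 1 and 61. S1PR3, ARL15, ARNT2 and TNXB had 1 UMI each at 32 nM and 38 to 42 at 1.2 µM. Of 11 measured genes of the chromosome 14 segment 7 were lower at 1.2 µM, and of 30 measured interferon genes 3 were higher and 0 lower.

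Against cluster 2, the cluster of the low doses, the highest genes were TENM2, NNMT, BMP6, DIO2, GPNMB and IGFN1. TENM2, an adhesion protein of neurons, had 103 CPM in cluster 4 and 13.7 CPM in cluster 2, but 136 CPM in cluster 3. DIO2, which activates thyroid hormone, had 333 CPM in cluster 4, 67.5 in cluster 2 and 270 in cluster 3. The lowest were PLAT, KCNQ5, PCSK5, GNGT1, GDA and PTTG1. PLAT, the tissue plasminogen activator, had 1.845 CPM in cluster 4, 29.2 in cluster 2 and 4.13 in cluster 3. TENM2, DIO2 and PLAT thus followed the high doses in both of their clusters, unlike GPNMB, which had 86.7 CPM in cluster 4, 42.9 in cluster 3 and 18.2 in cluster 2.

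The 600 nM culture gave the most cells of cluster 4, 232, against 192 other listed cells. Of 8127 measured genes 272 were higher (3.35%) and 308 lower (3.79%), and with median-of-ratios scaling 318 were higher and 235 lower. The highest were PTGS2, which encodes the cyclooxygenase of inflammation, CRISP3, a cysteine-rich secretory protein, MX2, TSHR, which encodes the thyrotropin receptor, XAF1 and IGFBP5. PTGS2 was 29.4 CPM in cluster 4 of this culture, at 17.1 times the other listed cells (4.42 to 146). CRISP3 was 34.8 CPM at 13.5 times (4.335 to 67.9), and IGFBP5 was 346 CPM at 6.02 times (4.65 to 7.90). PTGS2, CRISP3 and TSHR had 1.90 CPM each in cluster 3 of the culture, so their ratios rest on few UMIs, while IGFBP5 had 51.25 CPM there. The lowest were PTTG1, DLGAP5, KIF4A, CCL5, BIRC5 and CDKN3, of which CCL5, a chemokine, is the 1 gene with no known part in cell division. PTTG1 was 17.9-fold lower than in the other listed cells of the culture (12.9 to 25.4).

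The genes of cluster 4 were followed into cells outside the cell table, which did not enter the choice of these genes. Of the 55 genes higher in cluster 4, 42 were measured in the cells outside the cell table, where 37 were 2-fold higher at 1.2 µM than untreated (88.1%, against 5.71% of all genes) and 0 lower. Of the 150 lower genes 142 were measured there, and 60 were lower (42.3%, against 3.72%) and 3 higher. Cluster 4 consists of high-dose cells and its reference of cells of all doses, so this contrast also holds the difference between doses. The 50 genes with the highest ratios summed to 6.97 UMIs per 10000 in untreated cells outside the table. There the sum was 17.1, 20.25, 27.6 and 33.2 at 8, 16, 32 and 75 nM. It was 34.5, 34.55, 36.2 and 34.6 at 150, 300 and 600 nM and 1.2 µM, so it changed little from 150 nM on. The ratio of 1.2 µM to untreated was 4.97, and 5.08 after thinning. Persisters outside the table had 24.6 UMIs per 10000. The sum at 1.2 µM was near that of cluster 3, 31.6, and below that of cluster 4, 70.6, whose genes chose the set. The 50 lowest genes summed to 168 untreated and 76.0 at 1.2 µM outside the table, a ratio of 0.452.

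**Figure D5:**
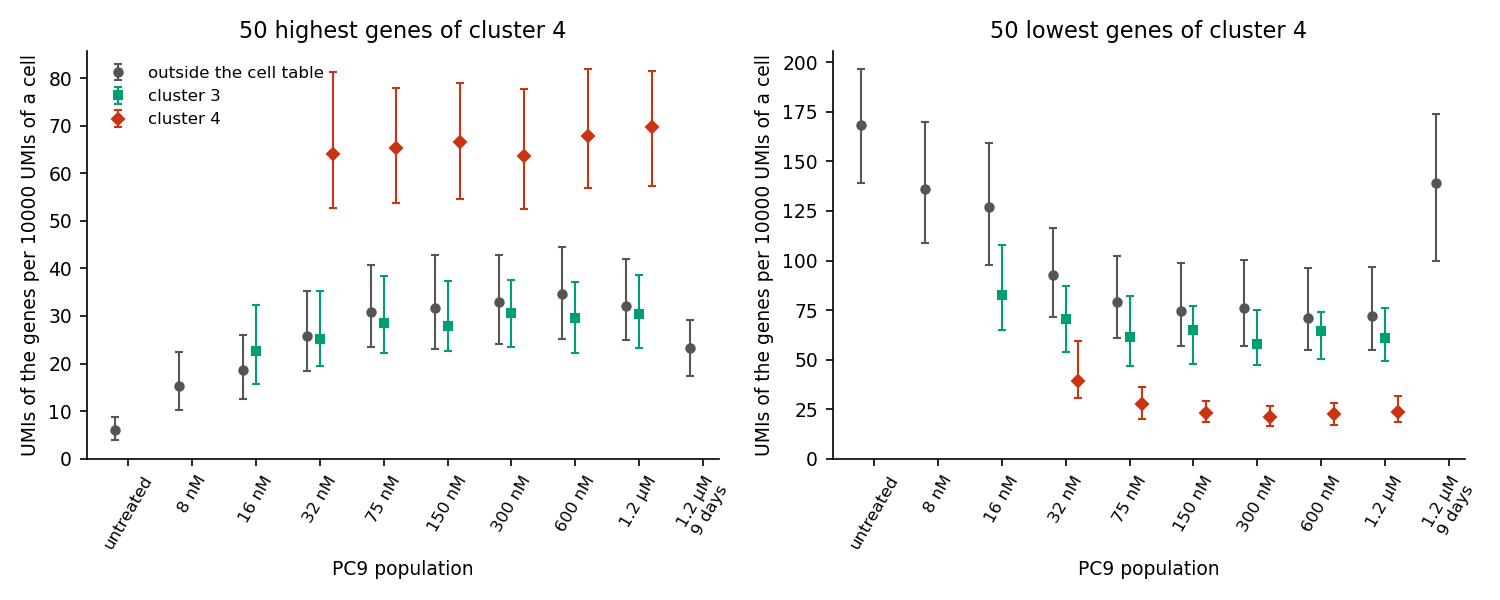
UMIs per 10000 UMIs of a cell for the 50 highest (left) and 50 lowest (right) genes of cluster 4, by culture, as the median and the middle 50% of cells. Cells outside the cell table (grey) and cluster 3 (green) lie together at the high doses for the 50 highest genes, while cluster 4 (red), on whose cells the genes were chosen, lies above them.

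The other line of the series gives the same genes under another drug. A375 is a melanoma line with the BRAF mutation V600E, escalated in the BRAF inhibitor dabrafenib, and 705 cells at 4 µM were set against 2011 untreated cells. Of 9946 genes 556 were 2-fold higher (5.59%) and 884 lower (8.89%). Of the 55 higher genes of cluster 4, 26 were measured there, with 11 higher (42.3%), 4 lower and a median log2 difference of 0.85. NUPR1 was 23.1 CPM untreated and 233 CPM at 4 µM, and NNMT was 221 and 829 CPM, while KISS1 was 1.365 and 1.83 CPM. BMP6 was 5.51 and 1.44 CPM and TNNT2 was 0.137 and 0.655 CPM. So NUPR1 and NNMT were higher at the top dose in both lines, whereas KISS1, TNNT2 and BMP6 were below the minimum of 10 CPM in A375. Of the 150 lower genes 118 were measured, with 65 lower (55.1%) and 11 higher. With only the A375 cells of its own cell table, 30 of 90 were lower (33.3%) and 13 higher. Between all 705 and 2011 A375 cells, 42 of 54 G2 and M genes and 34 of 42 S genes were lower at 4 µM. These lists were not counted within the A375 cell table, and the part of these division genes in the 65 was not tested.

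Markers of blood, vessel and connective tissue cells were at or near 0 in cluster 4. Of 11 listed immune markers 4 were in the count table, with a sum of 17.8 CPM in cluster 4 and 17.9 CPM in the other listed cells. CD14 was at 0 in cluster 4, which allows up to 0.503 CPM, and CD68, a lysosomal protein, made up 16.1 CPM of the sum. The sum was 7.045 and 9.53 CPM for 6 of 7 endothelial markers, with VWF at 0, and 9.225 and 10.2 CPM for 3 of 8 fibroblast markers. It was 0.168 and 0.276 CPM for 1 of 5 erythroid markers and 48.1 and 68.2 CPM for 4 of 7 melanocyte markers. For 6 of 11 neuroendocrine markers the sum was 1037 and 873 CPM, of which UCHL1, a ubiquitin hydrolase, made up 1022 CPM in cluster 4. CD14, CD68, VWF and UCHL1 were chosen after their values were seen. No doublet caller was run, and leaving out cells above 2 times the median UMIs changed the 205 genes that were 2-fold apart from the other listed cells to 206.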

How the data were processed

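Single-cell 3′ libraries of the tagged and pooled cultures were made with 10x Chromium v3.1 chemistry, per the labels' protocols. The authors deposited whole-number UMI counts per gene and cell, processed with Cell Ranger 7.0.0 on GRCh38, per the submitters' processing notes. The authors' deposited cell table gives, per cell, the culture, the cluster, total counts and the percent of mitochondrial counts. Its totals matched the count table for all 4208 listed cells. Cultures were assigned from the labels. How cells were filtered, listed and clustered by the authors is not given in the sources used here.

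UMI counts were summed by cluster and culture and scaled to CPM. Ratios were taken as log2(CPM + 1), a pseudocount of 1 CPM, which understates ratios of low genes. With 1 culture per dose, 1 library and a cluster built from these genes, no test was run, and intervals are 95% exact (Clopper-Pearson) binomial. The floor for a count of 0 was 3 counts. Shares of cells with a UMI were taken after thinning to 3410 UMIs, the 10th percentile. The text names the given markers, EGFR, epithelial markers, the 12 highest and 12 lowest genes of at least 25 CPM in the higher group, without clone-named and antisense genes, 6 and 6 in each of 3 further comparisons, up to 3 members at 2-fold or more per list and the 5 genes most like NUPR1. Others are said to be chosen after their values were seen. The members and lists were chosen with earlier results of these data known. Of 989 list entries in 48 lists, 913 matched the count table of 15429 genes, and 99.6% of genes had a GENCODE v29 position by symbol. Promoters came from RefSeq and motifs from exact string search. Sequences of NUPR1 and NNMT promoters were not used here. No doublet caller was run. The scripts were tested on simulated data. The alternatives were another pseudocount, minimum, threshold, scaling, thinning and reference, and each culture left out in turn (the 6 of 32 nM to 1.2 µM for cluster 3). Python 3.11.15, numpy 2.4.6, scipy 1.17.1, pandas 2.3.3 and matplotlib 3.10.9 were used, with R 4.3.3, edgeR 4.0.16 (TMM) and DESeq2 1.42.0 (median of ratios) for scaling factors alone.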

Additional observations from a re-analysis of the deposited data

How the results depend on the processing

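Each dose is 1 culture in 1 library, the cluster was built from the genes described, and how cells were listed is not stated, so the values describe these cells. Depth limits genes of low level, above all in the 71 cluster 4 cells of 32 nM. Of 1516 alternative values of 94 results on single genes, 1475 stayed on their side of 2-fold and 41 crossed it. These single-gene values cover only the comparisons with the other listed cells and with cluster 3. Another minimum or threshold was not applied to them. Of the results at 2-fold 0 changed sign. Changes of sign in results short of 2-fold, as for KISS1, were not counted. Of the alternative values of counts and shares, 93 stayed close and 33 moved. The 205 genes apart from the other listed cells became 115 with a pseudocount of 5 CPM, 395 with no minimum, 69 at a minimum of 50 CPM, 54 at a 3-fold threshold and 772 with the cells outside the table in the reference. The 238 apart from cluster 2 became 523 with no minimum, 79 at 50 CPM and 65 at 3-fold. The 580 within the 600 nM culture became 349 with a pseudocount of 5 CPM, 2064 with no minimum, 170 at 50 CPM and 130 at 3-fold. The 334 between 1.2 µM and 32 nM became 202, 2645, 70 and 80 under the same 4 settings. The 465 apart from cluster 3 became 291, 796, 154 and 127. At 50 CPM the list genes apart from cluster 3 were 6 for interferon, 12 for G2 and M and 0 for S phase, with fewer genes tested, and for S phase they were 6 with a pseudocount of 5 CPM and 3 at 3-fold. As shares of all cells of a culture, cluster 4 was 6.47, 12.3, 10.7, 18.7, 21.85 and 21.1% from 32 nM to 1.2 µM. The summed level of unlisted cells at 1.2 µM was 84.2 UMIs per 10000 with 100 genes, and 33.3% of the lower genes were lower in A375 when its own cell table was used. Leaving out each of the 10 cultures gave 175 to 241 genes apart from the other listed cells (the untreated, 8 nM, 16 nM and persister cultures were added to this after seeing the data), and leaving out each of the 6 gave 450 to 489 apart from cluster 3. No paired analysis was possible because the replicate numbers 1 and 2 that the labels share name sequencing runs of A375 that the cell names do not separate. Clusters 3 and 4 were compared within each of the 6 cultures, as counts of cultures and without a paired test, since both clusters were built from the genes compared.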
